A study of Homo sapiens with 12 samples.

Results

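The machinery that copies the genome was followed through 49 genes in THP-1 macrophages given a mimic of the microRNA miR-122-5p. The genes were chosen by symbol, matched to the Ensembl identifiers of the deposited count table, and make up 49 of its 58735 genes. They cover origin licensing, the replicative helicase, the polymerases, the sliding clamp, nucleotide supply, the E2F regulators and chromatin duplication. The rule used no expression value, but the list was drawn up with earlier results of these data known. Enough reads were present to test 48 of the 49, and only RNASEH2A fell under the filter on low counts.

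THP-1 is a human monocytic leukaemia line, and all libraries come from this line in a macrophage state. The sources used here do not say how the macrophage state was induced. The 6 libraries of the miR-122-5p group received the miR-122-5p mimic at 30 nM for 24 h with the lipid reagent RNAimax. The 6 libraries of the control group received control miRNA mimics in the same way, whose sequence the sources used here do not give. Both groups were then rested and stimulated with lipopolysaccharide (LPS), a bacterial cell wall component, for 4 h, so no library here shows cells without LPS or without transfection. The libraries of a group are numbered as duplications, with no word on whether each is its own culture, so p-values reflect how far these libraries differ among themselves, a spread that may be technical. The level of the mature miR-122-5p in the cells was not analysed here.

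DNA replication starts when the origin recognition complex, CDC6 and CDT1 load the MCM helicase onto chromatin. CDC45 and the GINS complex then join MCM to form the active helicase, and polymerases alpha, delta and epsilon copy the strands with the PCNA clamp. E2F transcription factors, held back by the retinoblastoma protein, drive transcription of most of these genes as cells enter S phase. Macrophages that have matured usually divide little and keep these genes low.

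The mature miR-122-5p, a microRNA best known from the liver, carries the following sequence in RefSeq (GRCh38.p14, chr18:58451088-58451109, plus strand), written 5′ to 3′ with the seed, bases 2 to 8, in capitals. It is shown because a microRNA finds its target messages by pairing of this seed with the 3′ untranslated region.
hsa-miR-122-5p: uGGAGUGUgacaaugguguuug

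With the miR-122-5p mimic, 32 of the 48 tested replication genes were higher (66.7%), 3 were lower (6.25%) and 13 did not pass the test. Over all 15471 tested genes, 50.5% were called, 24.3% as higher and 26.2% as lower. The median log2 fold change, miR-122-5p over control mimic, was 0.69 for the 48 genes and 0.01 for all tested genes. A call here is an adjusted p under 0.05 in edgeR's quasi-likelihood test, adjusted over all tested genes, with 6 libraries in each group. The genes that rose most were the regulators E2F2 and E2F1, the helicase partner GINS2, the helicase factor MCM10 and the chromatin factor UHRF1. The 3 that fell were the GINS subunit GINS3 and the polymerase subunits POLA1 and POLD3.

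Separation between the libraries was common. For 26 of the 48 genes (54.2%) every miR-122-5p library lay above every control library, against 13.4% of all tested genes. POLD3 was the only gene of the 48 with every miR-122-5p library below every control library, against 16.1% of all tested genes. A rise of at least 2-fold that also passed the test was seen for 14 of the 48, against 3.79% of all tested genes. The fold change pointed up for 40 of the 48 genes and down for 8.

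**Figure D1:**
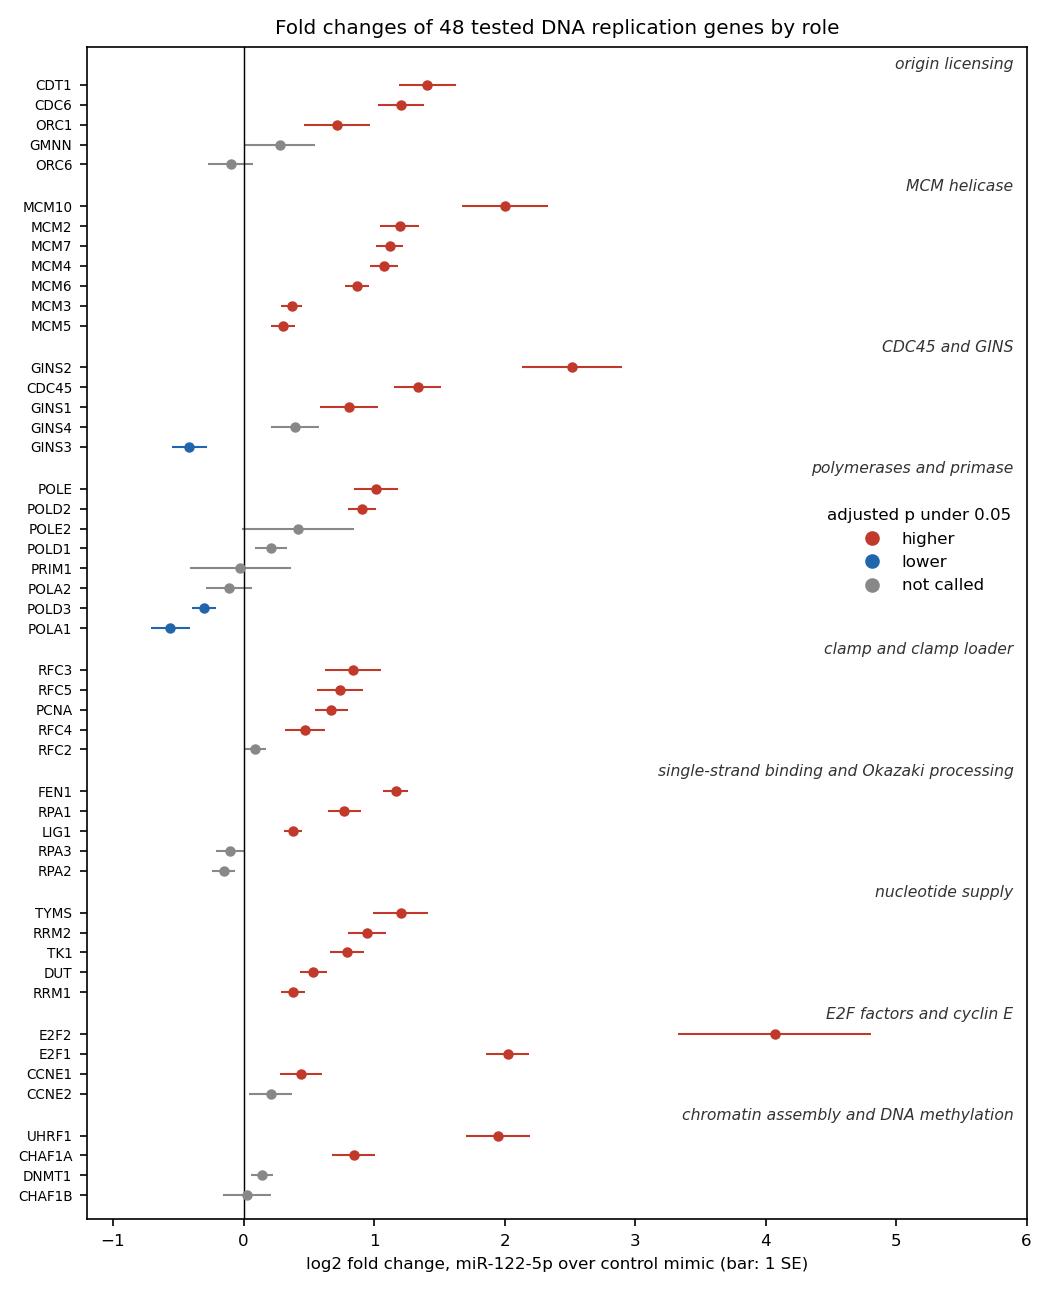
Log2 fold change of each of the 48 tested genes, miR-122-5p over control mimic, grouped by role, with bars of 1 standard error; colour gives the call at an adjusted p under 0.05. All MCM genes and all nucleotide supply genes lie to the right of 0, while the polymerases and primase spread on both sides of it.

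Libraries of the 2 groups had 29473750 to 39468157 counts in genes. Control library 6 had fewer genes with a read (19298, against 20545 to 21611 in the others), and control libraries 1 and 6 stood apart from the other control libraries in principal components of all genes. Without these 2 libraries, 34 replication genes were higher, 3 lower and 11 not called, with a median of 0.70, where 47.3% of all tested genes were called, 23.2% as higher and 24.1% as lower. Of 13 macrophage markers, TYROBP, FCER1G, CSF1R, ITGAM, ITGAX and SPI1 had the highest levels. The summed level of the 13, most of it from these genes, was 2943 to 3397 CPM with miR-122-5p and 2949 to 3412 CPM in controls. CPM are counts per 1000000 counts of the library, scaled by TMM factors. Others were far lower, with LYZ at 9.15 to 12.5 CPM with miR-122-5p and 7.93 to 13.0 CPM in controls. CD14 lay at 12.6 to 14.8 CPM against 16.1 to 20.5 CPM, and CD163 at 4.22 to 5.66 CPM against 8.09 to 10.7 CPM. Of the 11 macrophage markers tested, 2 were higher (TYROBP and ITGAM) and 7 lower, FCER1G, CSF1R and ITGAX among them. Of all tested genes 24.3% were higher and 26.2% lower. With GC and length trends removed, TYROBP (-0.03, adjusted p = 0.748) and ITGAM (0.11, adjusted p = 0.0735) were not called. In that fit SPI1 was lower (-0.32, adjusted p = 7.56e-06) and LYZ higher (0.32, adjusted p = 0.024). The scavenger receptor MSR1 lay at 15.9 to 26.4 CPM against 93.2 to 111 CPM and fell by 2.29 ± 0.11 on the log2 scale (adjusted p = 4.21e-13), and CD163 (-0.81), AIF1 (-0.47) and CD14 (-0.39) fell as well. CD68 (at most 0.502 CPM) and MRC1 (at most 0.437 CPM) were counted near 0 in both groups, but exons of other genes overlap 85.8% of CD68 exon sequence, so its count is uncertain. Of the markers of other cells, CD3D, CD3E, CD2, EPCAM and FGB were at 0 in all libraries. The sum of 5 B cell markers differed, at 5.77 to 7.92 CPM with miR-122-5p and 22.2 to 28.9 CPM in controls, and PAX5 alone made up 19.5 to 24.7 CPM of the latter. Endothelial markers summed to 12 to 17.7 CPM against 8.39 to 12 CPM, and most of that was VWF. The T cell list summed to 19.9 to 28.9 CPM against 19.2 to 23.9 CPM, nearly all of it TRAC, and the hepatocyte list to 88.4 to 114 CPM against 79.7 to 106 CPM, most of it SERPINA1. Fibroblast markers summed to 3.93 to 5.93 CPM against 2.05 to 4.99 CPM, and epithelial markers to at most 1.06 CPM in any library. The part of these markers in the replication result was not tested. In bulk RNA, a larger share of replicating cells and more message per cell cannot be told apart.

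The E2F regulators were among the genes that rose most. E2F1, the activator that switches on S-phase genes (chr20:33675683-33686404 in GENCODE 29), lay at 1.91 to 3.71 CPM in control libraries, median 3.12, and at 9.41 to 14.4 CPM with miR-122-5p, median 11.5. All 6 libraries with the mimic were far above all 6 controls, and E2F1 rose by a log2 fold change of 2.02 ± 0.16 (SE; adjusted p = 1.52e-09). E2F2, a second activator of the same family, was almost silent in controls, where 5 libraries held no read and library 4 held 6. The miR-122-5p libraries held 9 to 32 reads each, or 0.303 to 0.902 CPM with a median of 0.462. The summed counts were 111 against 6, a depth-adjusted ratio of 19.1 (exact 95% interval 8.52 to 53.3, which covers counting error only). The fitted log2 fold change was 4.07 ± 0.74 (adjusted p = 9.69e-05), a value that depends on how the near-empty control libraries are treated.

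Cyclin E binds CDK2 and pushes cells over the G1/S border, and its genes responded less. CCNE1 lay at 4.18 to 6.54 CPM (median 5.2) with miR-122-5p and at 2.96 to 5.52 CPM (median 3.70) in controls. The ranges overlap, and the log2 fold change was 0.44 ± 0.16 (adjusted p = 0.0293). The call was lost when control library 3 (0.38, adjusted p = 0.0637), control library 4 (0.38, adjusted p = 0.0651), miR-122-5p library 1 (0.41, adjusted p = 0.0567) or miR-122-5p library 4 (0.38, adjusted p = 0.0717) was left out. CCNE2 lay at 3.09 to 5.97 CPM (median 4.02) against 2.74 to 3.94 CPM (median 3.66), with a log2 fold change of 0.21 ± 0.16 (adjusted p = 0.31). CCNE2 passed only with GC and length trends removed, at 0.54 (adjusted p = 0.00693), and 37.1% of its exon sequence overlaps exons of other genes.

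Promoter sequence was examined because E2F factors bind a known family of words upstream of S-phase genes. RefSeq promoter windows (GRCh38.p14, 250 bases before to 50 after the annotated start) were matched by symbol for 42 of the 49 genes. At least 1 of the E2F words TTTGGCGC, TTTCCCGC, TTTGCCGC and TTTCGCGC, on either strand, stood in 21 of the 42 windows (50%), against 5.18% of 10640 windows of tested genes and 3.33% of all 27305 windows. CCAAT, on either strand, stood in 54.8% of the 42, against 36.1% of windows of tested genes, and TTTGAA in 2.38% against 9.73%. Matches to TTTGGCGC and TTTCGCGC on opposite strands can share bases and were each counted.

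An E2F word was present in 16 of the 30 matched genes that rose, in both matched genes that fell and in 3 of the 9 that were not called. The median log2 fold change was 0.87 for the 21 tested genes with a word (range -0.56 to 4.07) and 0.62 for the 20 without (range -0.10 to 2.00). A word is a match of letters and shows no binding. For 6 of the windows (GINS2, GINS3, RFC5, RRM2, UHRF1 and DNMT1) the RefSeq start lay over 1000 bases from the outermost GENCODE start of the gene, so the window is that of another annotated start.

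The windows below show how these words sit in the promoters of the regulators that rose most, of GINS2, of MCM6, whose window held 4 words, more than any other, and of POLA1, which has a word and fell. Each is written 5′ to 3′ on the strand of the gene, in lower case with E2F words in capitals.
E2F1, chr20:33686336-33686635, minus strand: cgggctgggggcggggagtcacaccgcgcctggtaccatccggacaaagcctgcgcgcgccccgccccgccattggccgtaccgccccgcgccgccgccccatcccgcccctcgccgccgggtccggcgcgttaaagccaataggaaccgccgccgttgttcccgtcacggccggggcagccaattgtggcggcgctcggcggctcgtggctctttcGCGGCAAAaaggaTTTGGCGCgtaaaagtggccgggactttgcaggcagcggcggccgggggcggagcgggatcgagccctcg
E2F2, chr1:23531184-23531483, minus strand: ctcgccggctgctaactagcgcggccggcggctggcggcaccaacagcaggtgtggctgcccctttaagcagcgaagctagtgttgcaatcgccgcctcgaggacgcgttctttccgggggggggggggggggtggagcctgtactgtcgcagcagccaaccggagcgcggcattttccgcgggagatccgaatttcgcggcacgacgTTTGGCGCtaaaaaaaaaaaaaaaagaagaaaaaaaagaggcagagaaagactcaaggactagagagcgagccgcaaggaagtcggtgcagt
GINS2, chr16:85688905-85689204, minus strand: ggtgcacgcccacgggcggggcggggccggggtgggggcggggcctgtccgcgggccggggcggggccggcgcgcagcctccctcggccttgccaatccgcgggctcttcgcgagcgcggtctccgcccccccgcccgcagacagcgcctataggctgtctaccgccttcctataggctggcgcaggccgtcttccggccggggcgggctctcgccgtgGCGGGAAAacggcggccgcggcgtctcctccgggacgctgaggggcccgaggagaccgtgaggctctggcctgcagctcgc
MCM6, chr2:135876394-135876693, minus strand: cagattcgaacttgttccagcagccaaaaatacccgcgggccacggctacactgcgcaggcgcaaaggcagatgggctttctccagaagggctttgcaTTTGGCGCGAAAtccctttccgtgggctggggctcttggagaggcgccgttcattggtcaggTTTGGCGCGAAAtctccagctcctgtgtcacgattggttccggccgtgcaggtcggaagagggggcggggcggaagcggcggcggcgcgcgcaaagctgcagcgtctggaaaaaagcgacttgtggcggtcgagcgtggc
POLA1, chrX:24693668-24693967, plus strand: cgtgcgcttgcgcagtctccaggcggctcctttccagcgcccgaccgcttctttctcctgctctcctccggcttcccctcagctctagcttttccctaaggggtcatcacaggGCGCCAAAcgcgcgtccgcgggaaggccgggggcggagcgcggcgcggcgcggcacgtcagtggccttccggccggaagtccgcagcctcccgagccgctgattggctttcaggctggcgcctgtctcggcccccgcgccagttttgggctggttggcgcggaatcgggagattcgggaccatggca

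In MCM6 the 4 words form 2 pairs, each of TTTGGCGC overlapping TTTCGCGC read on the other strand, and in E2F1 the first of 2 words starts 33 bases before the annotated start. POLA1 shares the word TTTGGCGC, read on the other strand, with E2F1, E2F2 and MCM6, and its fold change has the opposite sign.

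Origin licensing genes were higher in 3 of 5 cases, with a median log2 fold change of 0.72. CDT1, which brings MCM to origins, lay at 4.67 to 7.31 CPM (median 5.46) with miR-122-5p against 0.793 to 2.90 CPM (median 2.43), and rose by 1.41 ± 0.22 (adjusted p = 1.41e-05). CDC6, the loading ATPase, lay at 4.90 to 6.17 CPM (median 5.63) against 1.66 to 3.91 CPM (median 2.15), and rose by 1.21 ± 0.18 (adjusted p = 6.57e-06). Both loading factors were fully separated between the groups, and CDC6 in control library 1 was the control value nearest the mimic group. ORC1, the ATPase of the origin recognition complex, overlapped between groups at 1.34 to 2.36 CPM (median 1.76) and 0.656 to 1.53 CPM (median 1.17).

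The ORC1 change was 0.72 ± 0.25 (adjusted p = 0.022), and the call was lost without miR-122-5p library 4 (0.64, adjusted p = 0.055) or library 5 (0.67, adjusted p = 0.05). The other 2 licensing genes did not pass. GMNN, geminin, the inhibitor of CDT1, lay at 1.59 to 4.25 CPM (median 2.59) against 0.935 to 3.91 CPM (median 2.06), a log2 fold change of 0.28 ± 0.27 (adjusted p = 0.42). ORC6, a small subunit of the origin complex, lay at 2.29 to 2.71 CPM (median 2.57) against 2.03 to 3.59 CPM (median 2.61), a log2 fold change of -0.10 ± 0.17 (adjusted p = 0.659). For the inhibitor and the origin subunit the ranges of the groups overlapped almost wholly.

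The MCM genes rose in all 7 cases, with a median log2 fold change of 1.08. MCM7 lay at 37.2 to 49.5 CPM (median 41.3) with miR-122-5p against 15.5 to 23.4 CPM (median 19.2), a log2 fold change of 1.12 ± 0.10 (adjusted p = 1.08e-08). MCM4 lay at 16.7 to 19.3 CPM (median 18.8) against 7.51 to 11.4 CPM (median 7.97), a change of 1.08 ± 0.11 (adjusted p = 3.85e-08). MCM6 lay at 15.3 to 19.0 CPM (median 18.5) against 8.55 to 11.4 CPM (median 9.76), a change of 0.87 ± 0.09 (adjusted p = 8.54e-08). These are 3 subunits of the ring-shaped helicase, and none had a control library that reached the lowest library with the mimic.

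MCM10, which helps to start and steady the fork outside the ring, rose by 2.00 ± 0.33 from a low level (adjusted p = 3.34e-05). MCM2 rose by 1.2 ± 0.15 (adjusted p = 1.12e-06) and MCM3 by 0.37 ± 0.08 (adjusted p = 0.000847), both without overlap between groups. MCM5 rose by 0.30 ± 0.09 (adjusted p = 0.0075), with overlapping groups, and was no longer called once GC and length trends were removed (0.13, adjusted p = 0.12). The ring moved by unequal amounts, with MCM2, MCM4, MCM6 and MCM7 above MCM3 and MCM5.

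Levels per length of exon put the ring subunits side by side. In control libraries the order from low to high was MCM2 (0.81 ± 0.188 CPM per kb, SD), MCM4 (1.24 ± 0.221), MCM6 (2.37 ± 0.228), MCM5 (4.20 ± 0.48), MCM7 (4.39 ± 0.741) and MCM3 (5.79 ± 0.464). With miR-122-5p it was MCM2 (1.86 ± 0.264), MCM4 (2.62 ± 0.178), MCM6 (4.34 ± 0.332), MCM5 (5.19 ± 0.583), MCM3 (7.48 ± 0.672) and MCM7 (9.54 ± 0.949). Neighbours whose library ranges did not overlap were MCM2 and MCM4, MCM4 and MCM6, and MCM6 and MCM5 in controls. With miR-122-5p they were MCM2 and MCM4, MCM4 and MCM6, MCM5 and MCM3, and MCM3 and MCM7. On this scale the subunits, which assemble in equal numbers, differed 7.15-fold from lowest to highest in controls and 5.13-fold with the mimic. The length used is that of all annotated exons of a gene, not of the message expressed. The order and the folds between subunits therefore depend on the annotation as well. Exons of other genes overlap 23.6% of MCM2 exon sequence.

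**Figure D2:**
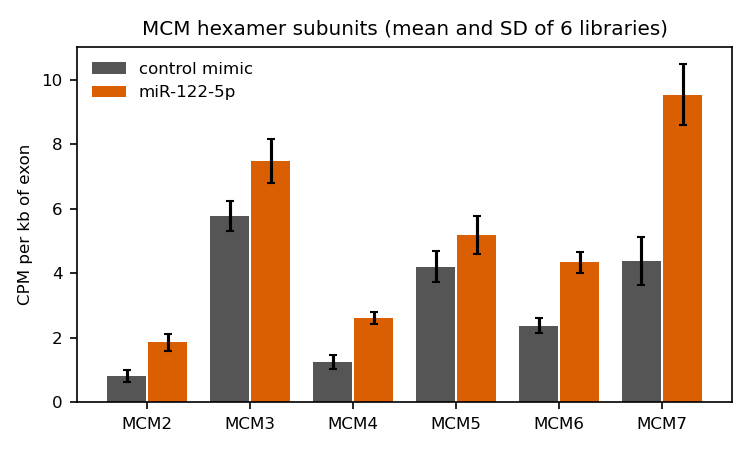
Mean level of the 6 subunits of the MCM ring in CPM per kilobase of exon, with bars of 1 SD over 6 libraries, for control mimic and miR-122-5p. MCM7 goes from 4.39 to 9.54 CPM per kb and passes MCM3, which goes from 5.79 to 7.48.

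CDC45 and the GINS complex turn the loaded ring into the running helicase, and their genes split. CDC45 lay at 3.53 to 5.36 CPM (median 3.82) with miR-122-5p against 1.22 to 2.28 CPM (median 1.53), and rose by 1.33 ± 0.18 (adjusted p = 2.35e-06). GINS2 lay at 1.48 to 3.41 CPM (median 2.33) against 0.0517 to 0.655 CPM (median 0.475), and rose by 2.52 ± 0.39 (adjusted p = 1.28e-05). GINS1 lay at 3.56 to 5.92 CPM (median 4.34) against 1.26 to 4.40 CPM (median 2.43), and rose by 0.81 ± 0.23 (adjusted p = 0.00486). The first pair was separated between groups and GINS1 was not.

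The remaining GINS subunits behaved otherwise. GINS3 lay at 7.90 to 10.5 CPM (median 9.22) with miR-122-5p against 9.41 to 17.8 CPM (median 11.8), and fell by 0.42 ± 0.14 on the log2 scale (adjusted p = 0.0143). Control library 5 held the 17.8, and without it the change was -0.29 (adjusted p = 0.0538). GINS4 lay at 2.76 to 4.30 CPM (median 3.63) against 1.78 to 3.53 CPM (median 2.87), a log2 fold change of 0.39 ± 0.18 (adjusted p = 0.0818). GINS4 passed without control library 6 (0.49, adjusted p = 0.0346) and with GC and length trends removed (0.48, adjusted p = 0.0342). Of GINS4 exon sequence, 23.6% overlaps exons of other genes. Subunits of a single complex ranged from a fall in GINS3 to the second largest rise of all 48 genes in GINS2.

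The polymerases and primase were the group with no common direction, with 2 genes higher, 2 lower, 4 that did not pass and a median change of 0.09 (log2). POLD2, the second subunit of the lagging strand polymerase delta, lay at 62.8 to 80.7 CPM (median 69.3) with miR-122-5p against 29.2 to 47.3 CPM (median 38.3), and rose by 0.91 ± 0.11 (adjusted p = 4.33e-07). POLE, the catalytic subunit of the leading strand polymerase epsilon, lay at 5.10 to 7.30 CPM (median 6.16) against 1.89 to 3.99 CPM (median 3.26), and rose by 1.02 ± 0.17 (adjusted p = 3.16e-05). Neither gene had overlapping groups.

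POLA1, the catalytic subunit of polymerase alpha (chrX:24693919-24996986), lay at 2.50 to 3.44 CPM (median 2.90) against 3.23 to 5.41 CPM (median 4.28), and fell by 0.56 ± 0.15 on the log2 scale (adjusted p = 0.00379). POLD3, a further polymerase delta subunit, lay at 8.81 to 9.85 CPM (median 9.20) against 9.97 to 12.6 CPM (median 11.5), and fell by 0.30 ± 0.09 on the log2 scale (adjusted p = 0.00936). For POLD3 the highest library with the mimic was just under the lowest control. The transcripts of the 3 genes that fell are 42.9% to 43.6% GC, under the median of 48.9% for tested genes, and with GC and length trends removed none was called: GINS3 was at -0.21 (adjusted p = 0.173), POLA1 at -0.33 (adjusted p = 0.0587) and POLD3 at -0.08 (adjusted p = 0.47).

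The other polymerase genes overlapped between groups. POLD1, the catalytic subunit of polymerase delta, lay at 45.2 to 69.1 CPM (median 54.0) with miR-122-5p and 34.7 to 61.8 CPM (median 49.1) in controls, a log2 fold change of 0.21 ± 0.12 (adjusted p = 0.171). Its direction turned with GC and length trends removed (-0.24, adjusted p = 0.0251), and it passed in the upward direction without control library 2 (0.30, adjusted p = 0.0452). POLA2, the second subunit of polymerase alpha, lay at 2.95 to 4.57 CPM (median 3.36) against 2.79 to 5.03 CPM (median 3.62), a change of -0.11 ± 0.17 (adjusted p = 0.622). The primase subunit PRIM1 was near the limit of detection, at 0.282 to 0.383 CPM (median 0.336) against 0.207 to 0.492 CPM (median 0.305), a change of -0.03 ± 0.39 (adjusted p = 0.962). POLE2, the second subunit of polymerase epsilon, lay at 0.370 to 0.724 CPM (median 0.563) against 0.152 to 0.897 CPM (median 0.280). Its change was 0.42 ± 0.43 (adjusted p = 0.446), and 1.26 (adjusted p = 0.0235) without control libraries 1 and 6. For POLE2, control libraries 1 and 6 held 31 and 24 reads and the other controls 5 to 12. Exons of other genes overlap 35.1% of POLA2 and 21.6% of PRIM1 exon sequence.

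**Figure D3:**
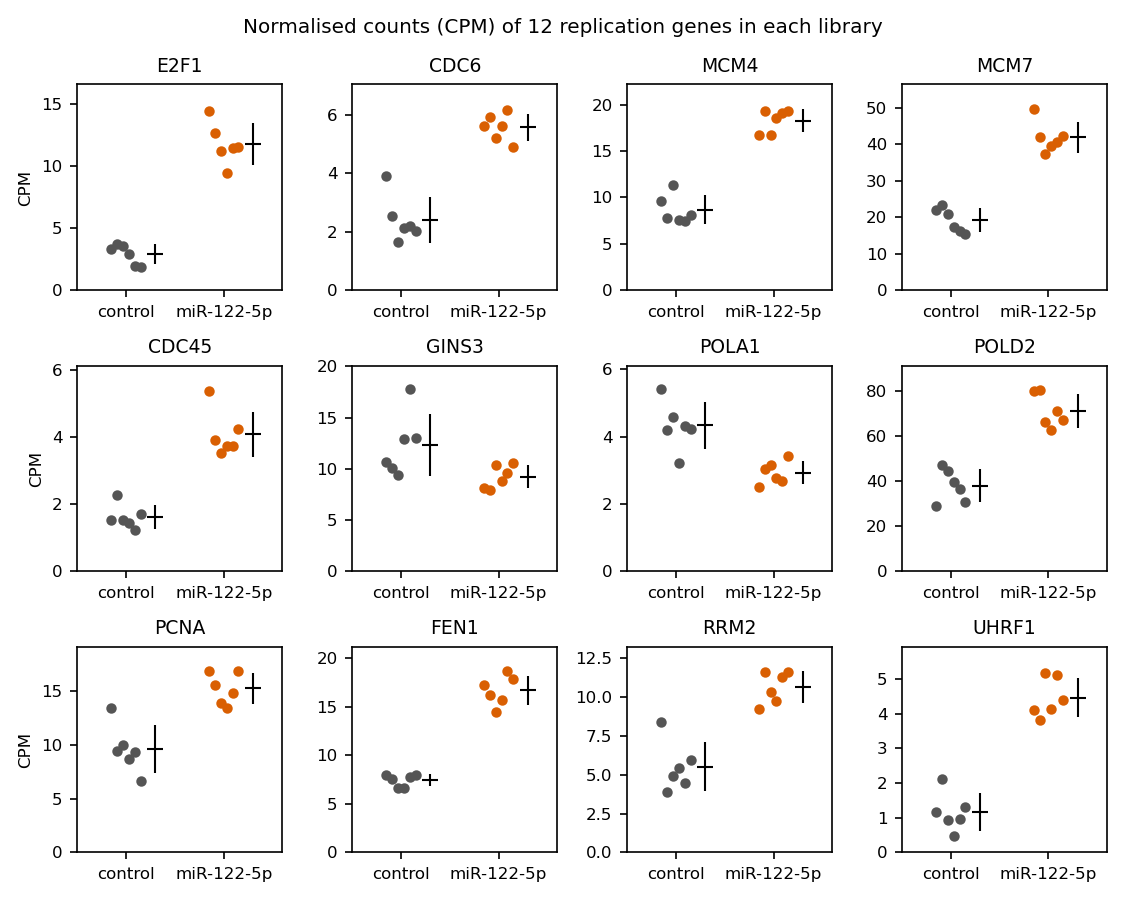
CPM of 12 replication genes in each of the 6 control and 6 miR-122-5p libraries, 1 point per library, with the mean and a bar of 1 SD beside the points; each axis starts at 0. E2F1, CDC6, MCM4, MCM7, CDC45, POLD2, FEN1, RRM2 and UHRF1 are separated, PCNA is separated by a small margin, and GINS3 and POLA1 are lower with overlap.

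PCNA forms the ring that keeps polymerases on DNA, and replication factor C (RFC) opens and closes it. PCNA lay at 13.4 to 16.9 CPM (median 15.2) with miR-122-5p against 6.59 to 13.4 CPM (median 9.37), and rose by 0.67 ± 0.13 (adjusted p = 0.000155). The highest control was library 1, which all but touched the lowest library with the mimic. RFC5 lay at 3.31 to 5.14 CPM (median 3.78) against 1.83 to 3.05 CPM (median 2.38), and rose by 0.74 ± 0.17 (adjusted p = 0.0012). RFC3 lay at 1.95 to 3.26 CPM (median 2.60) against 0.873 to 2.05 CPM (median 1.46), and rose by 0.84 ± 0.21 (adjusted p = 0.00237).

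RFC4 also rose, by 0.47 ± 0.15 (adjusted p = 0.0128), with overlapping groups. RFC2 was the exception among the clamp loader genes, at 31.0 to 36.9 CPM (median 33.1) against 27.0 to 36.3 CPM (median 30.5), a log2 fold change of 0.09 ± 0.08 (adjusted p = 0.359). It also had the highest level per length of the 4 loader genes, with 14.2 CPM per kb in controls, where RFC3 had 0.502, RFC5 0.741 and RFC4 1.23. These are means over 6 libraries, per length of all annotated exons of a gene and not of the message expressed, so the ranking depends on the annotation as well.

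Single-stranded DNA at the fork is covered by the RPA trimer, and Okazaki fragments are trimmed and sealed by FEN1 and LIG1. FEN1, the flap nuclease, lay at 14.5 to 18.7 CPM (median 16.7) with miR-122-5p against 6.61 to 8.01 CPM (median 7.66), and rose by 1.16 ± 0.10 (adjusted p = 2.45e-09). LIG1, the replicative ligase, lay at 82.6 to 101 CPM (median 92.1) against 64.0 to 74.2 CPM (median 70.8), and rose by 0.38 ± 0.07 (adjusted p = 9.33e-05). RPA1, the large RPA subunit, lay at 10.3 to 13.3 CPM (median 12.1) against 5.17 to 8.95 CPM (median 7.32), and rose by 0.77 ± 0.12 (adjusted p = 2.34e-05). All 3 were separated between the groups, and control libraries varied little in FEN1.

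The smaller RPA subunits did not pass. RPA2 lay at 15.5 to 19.0 CPM (median 17.5) with miR-122-5p against 17.2 to 21.5 CPM (median 19.1), a log2 fold change of -0.15 ± 0.09 (adjusted p = 0.162). RPA3 lay at 11.5 to 14.9 CPM (median 12.9) against 12 to 18.6 CPM (median 13.5), a change of -0.10 ± 0.11 (adjusted p = 0.465). RNASEH2A, the catalytic subunit of RNase H2, was not tested: it had 15 reads in all miR-122-5p libraries and 12 in all control libraries, a ratio of 1.29 with an exact 95% interval of 0.565 to 3.03. Exons of THSD8 overlap 30.8% of RNASEH2A exon sequence, so its count is uncertain. Of the trimer, RPA1 alone was called.

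Nucleotide supply genes rose in all 5 cases, each with no overlap between groups, and their median log2 fold change was 0.79. RRM2, the S-phase subunit of ribonucleotide reductase, lay at 9.23 to 11.6 CPM (median 10.8) with miR-122-5p against 3.90 to 8.39 CPM (median 5.16), and rose by 0.95 ± 0.15 (adjusted p = 1.65e-05). TK1, the cytosolic thymidine kinase, lay at 25.9 to 38.1 CPM (median 29.1) against 13.3 to 22.6 CPM (median 18.1), and rose by 0.79 ± 0.13 (adjusted p = 3.41e-05). TYMS, thymidylate synthase, lay at 2.67 to 3.56 CPM (median 3.12) against 0.765 to 1.87 CPM (median 1.36), and rose by 1.2 ± 0.21 (adjusted p = 6.05e-05). DUT, which removes dUTP, rose by 0.53 ± 0.10 (adjusted p = 0.000205), and RRM1, the partner of RRM2, by 0.38 ± 0.09 (adjusted p = 0.00199). Exons of other genes overlap 46.6% of TYMS and 20.2% of RRM2 exon sequence, and the sources do not state the strand setting of the counting. The annotated pseudogene copies of DUT held at most 24 reads in all libraries together, against 6811 reads in DUT itself.

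Chromatin must be copied with the DNA, and here 2 of 4 genes rose. UHRF1, which reads hemimethylated DNA and recruits DNMT1, lay at 3.83 to 5.17 CPM (median 4.27) with miR-122-5p against 0.465 to 2.12 CPM (median 1.07), and rose by 1.95 ± 0.24 (adjusted p = 8.76e-07). CHAF1A, the large subunit of the histone chaperone CAF-1, lay at 4.63 to 6.93 CPM (median 6.13) against 1.91 to 4.06 CPM (median 3.37), and rose by 0.84 ± 0.17 (adjusted p = 0.000247). Both were separated between the groups. DNMT1, the maintenance methyltransferase, lay at 28.7 to 35.7 CPM (median 32.0) against 23.4 to 33.0 CPM (median 29.2), a log2 fold change of 0.14 ± 0.09 (adjusted p = 0.172). CHAF1B, the partner of CHAF1A, lay at 1.65 to 2.91 CPM (median 2.41) against 1.94 to 2.80 CPM (median 2.37), a change of 0.02 ± 0.18 (adjusted p = 0.922). In both partnerships, UHRF1 with DNMT1 and CHAF1A with CHAF1B, a single member passed the test.

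Library by library, the mean log2 CPM of the 48 genes ran from 2.80 to 3.00 with miR-122-5p (2.89 ± 0.07, SD) and from 2.09 to 2.34 in controls (2.17 ± 0.10). Their summed level was 657 to 772 CPM with miR-122-5p and 461 to 535 CPM in controls. No library of either group reached the range of the other on these measures, for which no p is given because the members were chosen with results known. Within the miR-122-5p group, library 1 held the highest value for 15 of the 48 genes and library 3 the lowest for 16. Among controls, library 2 held the highest value for 15 genes and library 1 for 12, while libraries 5 and 6 each held the lowest for 12.

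**Figure D4:**
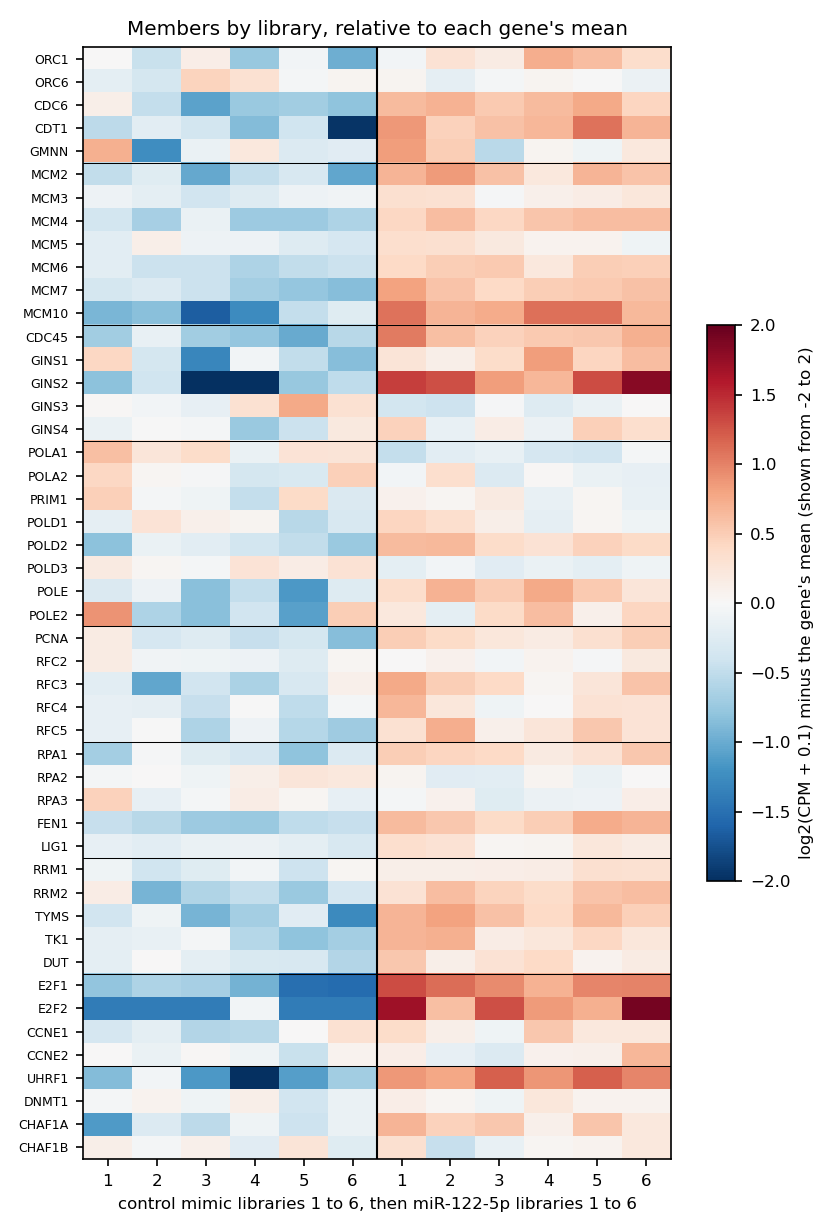
Each of the 48 tested genes by library, as log2(CPM + 0.1) minus the mean of the gene over 12 libraries, shown from -2 to 2, with control mimic libraries 1 to 6 on the left and miR-122-5p libraries 1 to 6 on the right; lines separate roles. Most rows are blue on the left and red on the right, GINS3, POLA1 and POLD3 show the opposite, and rows such as ORC6, RFC2 and RPA2 are pale throughout.

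Transcript GC content moved with the groups, so the replication genes were set against it. The slope of gene level on GC content was 0.0336 to 0.229 per 10 GC points in miR-122-5p libraries and -0.318 to 0.0119 in controls, with no overlap. Fold change and GC content had a Spearman rho of 0.34 across the 48 genes and 0.44 across all tested genes; genes share libraries and are not independent, so this is a description. Of 23 replication genes above the median GC of tested genes (48.9%), 19 were higher and 0 lower, with a median of 0.91, where all such genes had a median of 0.22 and 37.7% called higher. Of 25 at or below it, 13 were higher and 3 lower, with a median of 0.42, where all such genes had a median of -0.19 and 10.8% called higher.

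With each library's GC and length trends removed, 32 of the 48 were higher, 1 lower (POLD1) and 15 not called, with a median of 0.65; of all tested genes 46.8% were called in this fit, 23.3% as higher and 23.5% as lower. When the GC slopes entered the model as a covariate, 18 were higher, 0 lower and 30 not called, with a median of 0.52; of all tested genes 19.4% were called, 7.22% as higher and 12.2% as lower. GC slope and group cannot be told apart in this design, since the slopes do not overlap. The 18 were CDC6, MCM2, MCM3, MCM4, MCM6, MCM7, MCM10, CDC45, GINS1, GINS2, PCNA, RFC3, FEN1, RRM1, RRM2, E2F1, E2F2 and UHRF1. They also kept the call in the other alternatives at a threshold of 0.05 with no minimum fold change. So did 11 further genes, whose call was lost only with the GC slope as a covariate. Under a minimum fold change of 1.2, 16 of the 18 passed, and MCM3 and RRM1 did not. In the fit with the GC slope as a covariate, E2F1 stood at 1.57 (adjusted p = 0.000221), FEN1 at 1.35 (adjusted p = 5.18e-06) and MCM6 at 1.03 (adjusted p = 7.19e-05). Calls lost there included CDT1 (1.11, adjusted p = 0.0535), POLD2 (0.34, adjusted p = 0.0506) and TYMS (1.02, adjusted p = 0.0806), while LIG1, TK1, DUT, POLE, RPA1, RFC4, RFC5, CHAF1A, ORC1, CCNE1 and MCM5 were lost with adjusted p from 0.0617 to 0.693.

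**Figure D5:**
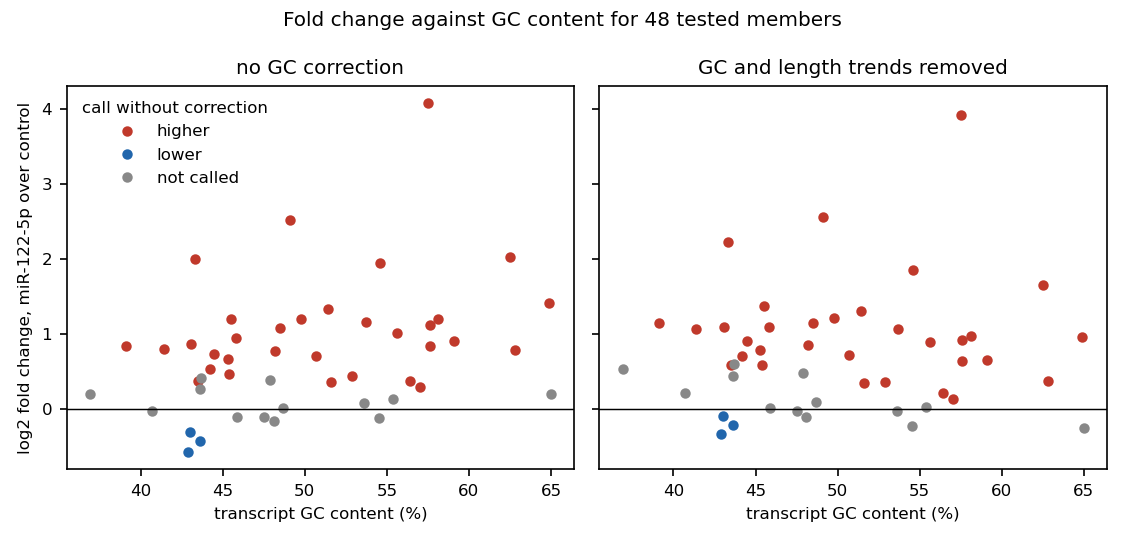
Log2 fold change against transcript GC content for the 48 tested genes, without correction (left) and with the GC and length trends of each library removed (right); colour gives the call without correction. Genes called higher span nearly the whole GC range in both panels, and the 3 genes called lower sit together at low GC and move towards 0 on the right.

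The calls were also set against level. Of 25 replication genes under 5 CPM on average, 16 were higher and 1 lower (median 0.74), of 14 at 5 to 20 CPM 10 were higher and 2 lower (median 0.72), and of 9 at 20 CPM or more 6 were higher and 0 lower (median 0.37). The share of all tested genes called higher in these ranges was 15.8%, 26.7% and 31.4%.

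Matches to the seed of the microRNA were searched for in the messages of these genes. In the longest annotated 3′ untranslated region (GENCODE 29), POLE had the strongest class, an 8mer site, and CDC6 and TK1 had a 7mer-m8 site. All 3 genes rose, and whether these cells express the longest annotated region was not examined. The sites are shown 5′ to 3′ with the bases that pair with the seed, and the A opposite the first base in POLE, in capitals.
POLE: ccctgcaccgcACACTCCAcaac
CDC6: atgttgttctcACACTCCttta
TK1: tgggatctggcACACTCCctct

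Weaker 7mer-A1 sites were present in 6 genes (ORC6, CDT1, MCM10, GINS2, GINS4 and DNMT1), of which 3 rose and 0 fell, and 6mer sites in 6 (MCM4, MCM5, GINS1, POLA2, RPA1 and E2F2), of which 5 rose and 0 fell. All 3 genes that fell were among the 34 with no match. Of all 48 tested replication genes 66.7% were called higher, and of all tested genes 24.3% were called higher and 26.2% lower. An 8mer was present in 2.04% of the 49 and in 3.50% of tested genes, and a 7mer-m8 in 4.08% and 6.27%. A 7mer-A1 was present in 12.2% and 16%, a 6mer in 12.2% and 14.2%, and no match in 69.4% and 60.1%.

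Neighbours on the other strand that start within 1000 bases upstream of a gene's own start were examined, since such pairs can share a promoter. Of the 9 protein-coding neighbours that were tested, 4 were higher and 2 lower, 3 did not pass, and the median change was 0.05 (log2). Over all tested genes, 24.3% were higher and 26.2% lower. PRKDC, whose annotated start is 2 bases from that of MCM4, was higher (0.68 ± 0.10, adjusted p = 6.89e-06). CDS2, next to PCNA, was lower (-0.43 ± 0.07, adjusted p = 4.80e-05), and UFD1, next to CDC45, was not called (-0.07 ± 0.09, adjusted p = 0.562). Neighbour and replication gene were both called in the same direction in 4 pairs: PRKDC with MCM4, PXMP2 with POLE, ZSWIM9 with LIG1 and AFMID with TK1. Whether a shared promoter has a part in these pairs was not tested.

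The same fit was read for 80 other genes of DNA replication, to place the 49 among their pathway. Of the 79 tested, 28 were higher (35.4%), 24 lower (30.4%) and 27 were not called, and the median change was 0.14 (log2); over all tested genes 24.3% were higher and 26.2% lower. Whether the 2 lists differ was not tested. With GC and length trends removed the counts were 36 higher and 15 lower, and with the GC slope as a covariate 18 and 7. In that last fit ATR (-0.29, adjusted p = 0.438), PRIM2 (-0.24, adjusted p = 0.546), CHTF18 (0.23, adjusted p = 0.693), RRM2B (-0.06, adjusted p = 0.806), DBF4 (-0.06, adjusted p = 0.839), ASF1A (-0.36, adjusted p = 0.266), CCNA2 (0.69, adjusted p = 0.187), NASP (-0.33, adjusted p = 0.0868) and TIMELESS (0.55, adjusted p = 0.0678), all described next, were not called. Removing GC and length trends also moved several of these genes towards 0 by over 1.5 times: DBF4 to -0.21, NASP to -0.27, ASF1A to -0.65, CHTF18 to 0.66, RNASEH2B to -0.35, RB1 to -0.48, TONSL to 0.67, RECQL4 to 0.64 and DTYMK to 0.64, all still called. An E2F word stood in 13 of the 67 matched promoter windows (19.4%).

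Of 15 further licensing and firing factors, 1 was higher and 6 were lower. RECQL4, a helicase needed to start replication, was higher (1.11 ± 0.13, adjusted p = 3.27e-07), while ORC4, an origin complex subunit, was lower (-1.18 ± 0.10, adjusted p = 6.97e-09), as was DBF4, the activator of the CDC7 kinase (-0.51 ± 0.11, adjusted p = 0.000385). ORC4 went from a mean of 13.2 CPM to 5.82 CPM, so ORC1 and ORC4 of the origin complex were called in opposite directions. ORC1 lost its call with the GC slope as a covariate (0.99, adjusted p = 0.17). ORC2 was lower as well (-0.41 ± 0.14, adjusted p = 0.0156), but was not called with GC and length trends removed (-0.13, adjusted p = 0.452) or with the GC slope (-0.22, adjusted p = 0.594). ORC3 and ORC5 were not called, but ORC5 was higher with GC and length trends removed (0.66, adjusted p = 0.00306).

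Among 13 tested fork and checkpoint genes 6 were higher and 3 lower. EXO1, a repair exonuclease, rose by 2.25 ± 0.33 (adjusted p = 6.92e-06) and TIMELESS, of the fork protection complex, by 0.65 ± 0.11 (adjusted p = 6.04e-05). BRCA2, which loads the recombinase on stalled forks, fell by 1.30 ± 0.16 on the log2 scale (adjusted p = 9.00e-07), and the checkpoint kinase ATR by 0.58 ± 0.13 (adjusted p = 0.000916). ATR was not called with GC and length trends removed (-0.28, adjusted p = 0.0633). The other polymerase, clamp and ligation subunits had 6 of 13 higher and 4 lower. DSCC1 (1.64 ± 0.39, adjusted p = 0.00144) and CHTF18 (1.08 ± 0.22, adjusted p = 0.000345), of the alternative clamp loader, rose, while RNASEH2B (-0.66 ± 0.08, adjusted p = 9.02e-07) and the primase subunit PRIM2 (-0.53 ± 0.14, adjusted p = 0.0023) fell. PRIM2 was not called with GC and length trends removed (-0.29, adjusted p = 0.0593).

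The other nucleotide enzymes had 5 of 12 higher and 4 lower. DTYMK, thymidylate kinase, rose by 0.98 ± 0.11 (adjusted p = 1.98e-07) and the nucleoside carrier SLC29A1 by 0.61 ± 0.07 (adjusted p = 4.58e-07). SAMHD1, which breaks down deoxynucleotides and is high in macrophages that do not divide, fell from a mean of 163 to 94.1 CPM, a change of -0.80 ± 0.07 (adjusted p = 9.31e-09). RRM2B, the reductase subunit used outside S phase, fell by 0.53 ± 0.10 (adjusted p = 9.23e-05), the opposite direction to RRM2, but by only 0.17 (adjusted p = 0.0443) with GC and length trends removed.

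In the E2F and RB family and their partners, 5 of 16 were higher and 5 lower. CDC25A, a phosphatase that activates CDK2, rose by 1.25 ± 0.23 (adjusted p = 9.29e-05) and cyclin A2 (CCNA2) by 0.94 ± 0.18 (adjusted p = 0.000225). RB1, the retinoblastoma protein that restrains E2F, fell by 0.82 ± 0.07 on the log2 scale (adjusted p = 4.29e-09), and the repressor E2F7 by 0.70 ± 0.09 (adjusted p = 2.70e-06). RB1 had every library with the mimic below every control, at 28.2 to 33.3 CPM against 48.8 to 56.2 CPM. Of 10 other chromatin assembly and methylation genes 5 were higher and 2 lower. The histone chaperones split here too: ASF1B rose by 1.12 ± 0.14 (adjusted p = 1.32e-06) and TONSL by 1.05 ± 0.13 (adjusted p = 9.59e-07), while ASF1A fell by 1.02 ± 0.14 (adjusted p = 3.78e-06) and NASP by 0.47 ± 0.08 (adjusted p = 4.79e-05).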

How the data were processed

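The 12 RNA libraries came from THP-1 macrophages after LPS, 6 with each mimic. Per the labels' protocols, libraries were made from Trizol RNA with an NEBNext Ultra RNA kit. The authors deposited a table of raw counts, not normalized. In the submitters' processing notes stand hg38, the aligner HISAT2 2.0.5 and the counter featureCounts 1.5.0-p3; strand setting and annotation release: not given in the sources used here. All 58735 gene identifiers matched GENCODE 29, used for symbols, coordinates, exon length, GC content of the longest transcript and 3′ untranslated regions. The names of the control columns do not quote the sample titles; they were matched to the only other group, by number.

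The filterByExpr rule kept 15471 genes (28537 had no read in any library). Groups were compared in R 4.3.3 with edgeR 4.0.16 (TMM factors, quasi-likelihood test, Benjamini-Hochberg over all tested genes, threshold 0.05). The standard error is the log2 fold change divided by the root of the F statistic, log2 CPM used a prior count of 2, and 6 genes without transcript sequence received no GC correction. The fit was also run on simulated counts without the GC slopes of these libraries, so that run cannot show whether the calls hold here. Alternatives were DESeq2 1.42.0, limma-voom (limma 3.58.1), other scalings and filters, a replicate block, GC and length offsets (splines with 4 degrees of freedom), the GC slopes as a covariate, a minimum fold change of 1.2, an adjusted p under 0.01, and each library left out. For genes outside the 49, these alternatives were added after the data were seen. Same-numbered libraries of the groups did not deviate together (correlations -0.105 to 0.066), so they are not taken as pairs. No library was a copy of another: within groups, chi-square over degrees of freedom was 7.38 to 65.5.

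The 49 genes, the 80 other replication genes and the marker lists were chosen with earlier results of these data known. Values per library are given for the up to 3 genes of smallest p in each role and for every tested gene called lower or not called; of the other lists, up to 2 genes of smallest p in each direction are named. The result of 1 marker list is not reported here. The neighbour genes and markers named, and ORC2, ORC3 and ORC5, were picked after their values were seen. Promoters and the miR-122-5p sequence are RefSeq's (GRCh38.p14).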

Additional observations from a re-analysis of the deposited data

Results flagged for a closer look

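Among the 96 sets of 6 libraries (48 genes in 2 groups), 2 held a library far from the others by Dixon's test at its critical value of 0.625; chance alone flags about 1 set in 20. E2F2 was detected in a single control library, library 4, at 0.155 CPM, while the other control libraries were at 0. CCNE2 in miR-122-5p library 6 stood at 5.97 CPM, above the 3.09 to 4.10 CPM of the other libraries of that group.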

How the results depend on the processing

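Of the 32 replication genes called higher, 18 kept the call in each of the 23 alternatives at a threshold of 0.05 with no minimum fold change. For E2F2, which the filter at 1 CPM removes, there were 22 such alternatives. Another 11 lost the call among these only with the GC slope as a covariate, and ORC1, MCM5 and CCNE1 lost it in further ones. None of the 3 lower calls held in all. With the GC slope as a covariate, 18 replication genes were higher, 0 lower and 30 not called (median 0.52), of all tested genes 1117 were higher and 1887 lower, and of the other replication genes 18 were higher, 7 lower and 54 not called. GC and length offsets left 1 replication gene and 15 other replication genes lower, and 1 and 14 with the replicate block added. A minimum fold change of 1.2 left 1 replication gene lower and 21 not called, 2264 of all tested genes higher and 2580 lower, and 13 other replication genes lower and 46 not called, since it asks for a larger change; it ended 6 of the 32 higher calls (ORC1, MCM3, MCM5, RFC4, RRM1 and CCNE1), and an adjusted p under 0.01 ended 3 (ORC1, RFC4 and CCNE1). The cause of the other shifts was not tested.

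The direction reversed for some genes, of which MCM5 had been called higher and POLD1 came to be called lower with the offsets (adjusted p = 0.0251, and 0.00894 with the block): with GC and length offsets PRIM1 (0.22), POLD1 (-0.24), RFC2 (-0.02) and RPA3 (0.02); with the offsets and the replicate block PRIM1 (0.25), POLD1 (-0.24), RFC2 (-0.01) and RPA3 (0.03); with the GC slope MCM5 (-0.09), POLA2 (0.13), PRIM1 (0.47), POLD1 (-0.40), RPA3 (0.22) and DNMT1 (-0.03); without control libraries 1 and 6 POLA2 (0.12), PRIM1 (0.05) and CHAF1B (-0.00). PRIM1 also reversed with library totals (0.02), limma-voom (0.04) and the replicate block (0.01). With single libraries left out, PRIM1 ranged from -0.13 to 0.12 and CHAF1B from -0.04 to 0.12. The replicate block alone gave 32 replication genes higher, 3 lower and 13 not called, and changed no call among them. E2F2, PRIM1, POLE2 and RNASEH2A rest on few counts.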
